A study of Mus musculus with 15 samples.

Results

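The annexin genes Anxa1, Anxa2, Anxa3, Anxa4, Anxa5, Anxa6, Anxa7 and Anxa11 and the S100 genes S100a6 and S100a10 were followed in RNA-Seq libraries of mouse optic tissue. They are 10 of the 23244 gene entries of the series, and all 10 were among the 13845 genes that passed the filter on low values. The list was put together because Anxa1 differed strongly between the Fgf and Wnt conditions at Day 12. For that contrast the values are therefore a description without a test, and Anxa1 is tested only in comparisons that use no Day 12 library.

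The tissue was grown by SFEBq, a suspension culture in which aggregates of mouse embryonic stem cells form optic epithelium by themselves. All samples came from 1 stem cell line, EB5 Rx::GFP+/-, in which GFP reports expression of the eye field gene Rx (Rax), and there were 5 groups of 3 biological replicates. Before aggregation the cells were kept in medium with CHIR99201, LIF and a MEK inhibitor, which the sample labels give as PD184352 and the text of the study names differently. Day 10 Rx::GFP+ tissue was the GFP-positive epithelium as excised with forceps, with no further treatment. The +Wnt tissue was cultured from Day 10 with the GSK3 inhibitor CHIR99201, at 3 µM for 24 h and then at 1 µM, and collected on Day 12 or Day 15. The +Fgf tissue was cultured with 5 ng/ml human recombinant bFgf plus 10% fetal bovine serum and collected on the same days. Serum was given only with bFgf, so their parts in any difference of a +Fgf group cannot be told apart. No group was cultured past Day 10 without an added signal, so time in culture and either signal cannot be told apart in comparisons with Day 10.

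Annexins bind acidic phospholipids of membranes when calcium rises, each through a core of repeated annexin domains behind a variable N-terminal tail. S100 proteins are small EF-hand calcium sensors, and several of them dock on such tails: S100a10 joins Anxa2 in a heterotetramer at the inner face of the plasma membrane, S100a11 binds Anxa1, and S100a6 can bind Anxa11 among others. The family is known for work in membrane repair, in endocytosis and exocytosis, and in the link between membrane and actin. Anxa1 is also known as a mediator that dampens inflammation. In bulk tissue, fewer cells of a type and less RNA per cell cannot be told apart, which holds for every level below.

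Values are the deposited normalized expression values, read counts divided by a scaled library size (CPM). Between 12556998 and 16175450 reads were assigned to genes in each library, so that 1 read was worth 0.0620 to 0.0764 CPM. Differences are given as log2 of (CPM + 0.3) with the standard error (SE) of 1 limma fit over the 15 libraries, and a gene is called where the Benjamini-Hochberg adjusted p over all 13845 genes was under 0.05. Neural retina progenitor markers, summed over 8 genes, held between 2181 and 2555 CPM in the 6 +Fgf libraries and between 628 and 931 CPM in the 6 +Wnt libraries. Without overlap of the Day 12 groups, 7 of the 8 genes were higher in +Fgf and 1 lower, as were 30.9% and 29.4% of all tested genes. All 8 were called higher in Day 15 +Fgf than in Day 15 +Wnt, against 38.0% of all tested genes. Pigment epithelium markers summed to between 6074 and 8038 CPM in Day 15 +Wnt and to at most 1576 CPM elsewhere, over 10 genes, but Rpe65, a defining gene of mature pigment epithelium, had at most 3 reads in each of the 15 libraries.

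The sequences before the start sites of Anxa2, Anxa5, Anxa4 and Anxa7 are shown because these genes differed in Day 12 +Fgf: Anxa2 and Anxa5 rose there against Day 10, while Anxa4 and Anxa7 did not pass the test. Each comes from a window of 250 bases before a RefSeq start site (GRCm38.p6), without bases inside an annotated exon of the gene, and is read 5′ to 3′ on the strand of the gene. Anxa2 is taken from chr9:69453433-69453619 (plus strand) and Anxa5 from chr3:36475895-36476137 (minus strand). Anxa4 is taken from chr6:86793585-86793834 (minus strand) and Anxa7 from chr14:20480134-20480383 (minus strand). Capitals mark matches found in a search of both strands for the letters TGANTCA (AP-1), GGAATG (TEAD), CTTTGAT (TCF/LEF) and CACGTG (E-box) and for the CArG box.
Anxa2: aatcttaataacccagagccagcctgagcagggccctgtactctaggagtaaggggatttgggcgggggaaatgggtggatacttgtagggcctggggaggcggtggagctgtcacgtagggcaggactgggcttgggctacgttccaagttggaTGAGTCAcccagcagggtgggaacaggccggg
Anxa5: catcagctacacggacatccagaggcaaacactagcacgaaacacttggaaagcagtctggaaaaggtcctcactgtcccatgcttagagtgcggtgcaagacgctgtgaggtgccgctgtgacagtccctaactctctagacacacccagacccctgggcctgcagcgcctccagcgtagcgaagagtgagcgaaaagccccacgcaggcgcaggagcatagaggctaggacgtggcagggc
Anxa4: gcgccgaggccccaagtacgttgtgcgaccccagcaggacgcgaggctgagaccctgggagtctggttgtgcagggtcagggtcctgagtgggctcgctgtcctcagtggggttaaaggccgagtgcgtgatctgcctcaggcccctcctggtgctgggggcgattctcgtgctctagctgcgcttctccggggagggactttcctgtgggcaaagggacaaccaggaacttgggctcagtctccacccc
Anxa7: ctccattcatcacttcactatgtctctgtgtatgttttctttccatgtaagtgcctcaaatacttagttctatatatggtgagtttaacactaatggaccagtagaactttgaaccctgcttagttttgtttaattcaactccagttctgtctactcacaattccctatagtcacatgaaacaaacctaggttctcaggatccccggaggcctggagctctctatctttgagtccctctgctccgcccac

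A window was found for 7 of the 10 genes, which together had 9 start sites. The Anxa2 window held the AP-1 letters as TGAGTCA, at bases -95 to -89 from its RefSeq start site, and 6.75% of the 32851 promoters of the same length held a match. The 63 bases of this window nearest that start site lie in an annotated exon and are left out of the printed sequence. The Anxa1 window, which lies within an annotated exon and is not printed, held the TEAD letters on the other strand, as CATTCC at bases -236 to -231, against 12.6% of all promoters. A second window of Anxa7, before an inner start site, held the E-box letters at bases -113 to -108, against 6.02% of all promoters. None of these matches overlapped another, the other 6 windows held none of the letters searched, and the letters for TCF/LEF (3.21% of promoters) and the CArG box (1.47%) were in none of the 9 windows. A match describes the letters of a window, and binding of a factor was not measured.

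Anxa1 (entry XLOC_010421, chr19:20373428-20390944 on mm10, as are the positions below) had by far the widest range of the 10 genes. The Day 10 replicates held 7.63, 2.81 and 5.73 CPM. Day 12 +Fgf tissue held 79.4, 74.7 and 144 CPM, and Day 12 +Wnt tissue held 0.315, 0.209 and 0.265 CPM, which is 12 reads over the 3 libraries (exact Poisson 95% interval 6.20 to 21.0, counting error only). All 6 Day 12 libraries lay outside the Day 10 range, and the group means of CPM at Day 12 stood 378-fold apart. The difference in log2 of (CPM + 0.3), which the added 0.3 shrinks, was 7.41, or 170-fold. That log2 value rests on few reads, and ranged from 6.25 with a pseudocount of 1 to 8.49 in edgeR's count fit.

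By Day 15 both conditions had moved back towards the Day 10 level of Anxa1. Day 15 +Fgf tissue held 17.9, 13.4 and 12.9 CPM and Day 15 +Wnt tissue 5.02, 2.76 and 4.98 CPM. All 3 +Fgf libraries lay above all Day 10 and all Day 15 +Wnt libraries, while the Day 15 +Wnt and Day 10 libraries overlapped. Against Day 10, Anxa1 was 2.81-fold higher in Day 15 +Fgf (log2 1.49 ± 0.31 (SE), adjusted p = 3.60e-04 by limma). In Day 15 +Wnt it did not pass the test against Day 10 (log2 -0.26, 95% interval -0.91 to 0.39, adjusted p = 0.438 by limma), although without Day 10 replicate 2 the log2 difference was -0.65 with an adjusted p of 0.0448, and after quantile normalization it was -1.10 with an adjusted p of 0.00267. Day 15 +Fgf stood 3.37-fold above Day 15 +Wnt (log2 1.75 ± 0.31 (SE), adjusted p = 8.50e-05 by limma). Day 15 +Fgf also had the lowest mean RNA integrity number of the 5 groups in the study's sample table, and with that number as a covariate the Day 15 difference was 1.16 with an adjusted p of 0.105 by limma.

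**Figure D1:**
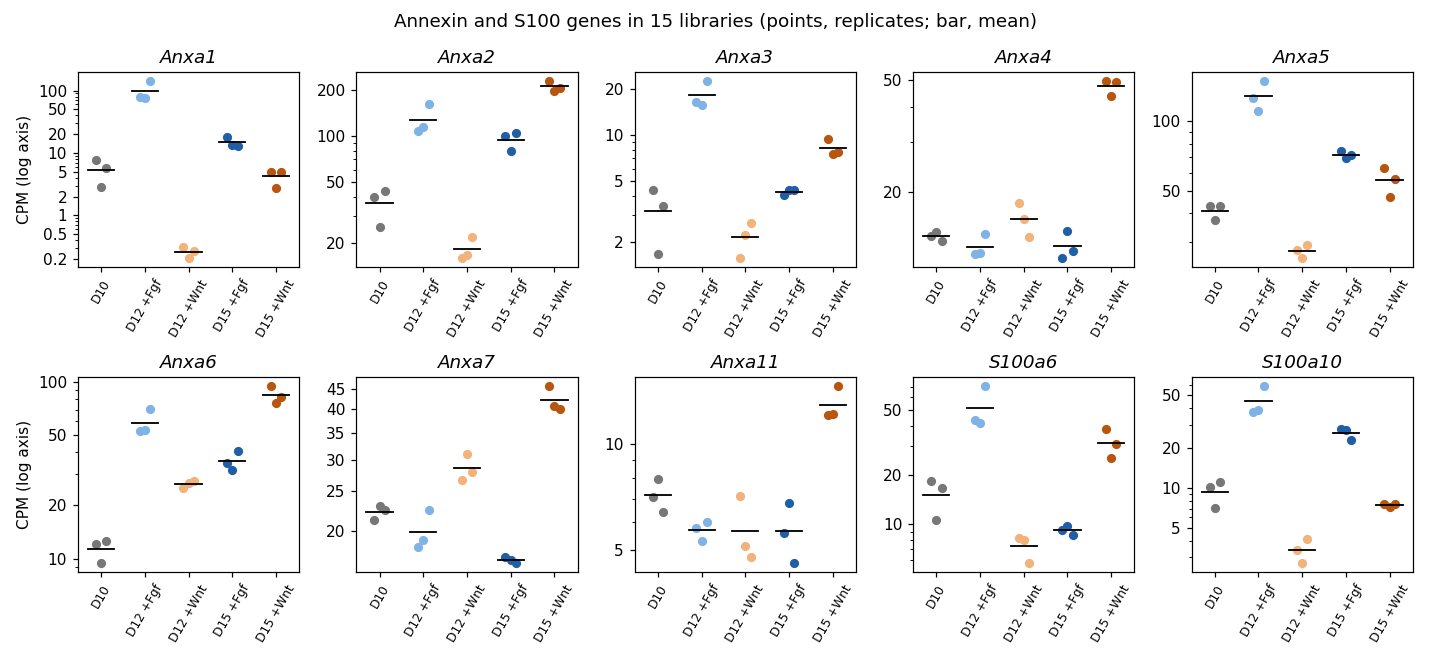
Level of each gene (CPM, log axis with its own range in each panel) in the 5 groups, with 1 point per library and a bar at the mean of 3. Anxa1 runs from 0.209 CPM in a Day 12 +Wnt library to 144 CPM in a Day 12 +Fgf library, while Anxa4, Anxa7 and Anxa11 are highest in the 3 Day 15 +Wnt libraries.

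S100a11, which was not on the list of 10 but encodes the S100 partner of Anxa1, covered a much narrower range. It was named after its values were seen, so its p-values are no independent support. It was measured at 20.9, 19.6 and 18.9 CPM on Day 10, 43.0, 44.2 and 60.1 CPM in Day 12 +Fgf and 9.18, 11.3 and 10.7 CPM in Day 12 +Wnt. It rose in Day 12 +Fgf (log2 1.28 ± 0.12 (SE), adjusted p = 2.46e-07 by limma) and fell in Day 12 +Wnt (log2 -0.91 ± 0.12 (SE), adjusted p = 7.68e-06 by limma), both against Day 10. On Day 15 the +Fgf libraries held 18.8, 15.0 and 16.2 CPM and the +Wnt libraries 19.3, 17.2 and 19.5 CPM, a difference of -0.16 on the log2 scale (95% interval -0.42 to 0.09, adjusted p = 0.247 by limma). Per length of transcript, the ratio of Anxa1 to S100a11 was 0.563, 0.517 and 0.730 in the Day 12 +Fgf replicates and 0.0105, 0.00565 and 0.00754 in the Day 12 +Wnt replicates. A pseudogene of S100a11 is annotated in mouse, so reads could have been divided between the copies.

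Anxa2 (chr9:69453620-69491795), which links membranes to actin and binds the protease precursor plasminogen at the cell surface, had the highest mean of the annexins per length in 4 of the 5 groups. It was measured at 39.7, 25.4 and 43.4 CPM on Day 10. Day 12 +Fgf libraries held 107, 114 and 162 CPM and Day 12 +Wnt libraries 15.9, 16.7 and 21.8 CPM, on either side of the Day 10 range. It rose 3.53-fold in Day 12 +Fgf against Day 10 (log2 1.82 ± 0.18 (SE), adjusted p = 4.14e-07 by limma) and fell 1.95-fold in Day 12 +Wnt (log2 -0.96 ± 0.18 (SE), adjusted p = 2.39e-04). These and all other Day 12 comparisons below use the same Day 12 libraries as the contrast the genes were chosen on.

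By Day 15 the order of the conditions had turned for Anxa2. Day 15 +Fgf libraries held 99.8, 79.7 and 104 CPM, and the Day 15 +Wnt libraries, at 229, 198 and 206 CPM, were the highest of the 15. Between Day 12 and Day 15 the +Wnt tissue gained 11.5-fold (log2 3.53 ± 0.18 (SE), adjusted p = 7.07e-11 by limma). Against Day 10, Anxa2 was 2.65-fold higher in Day 15 +Fgf (log2 1.41 ± 0.18 (SE), adjusted p = 2.49e-06 by limma) and 5.93-fold higher in Day 15 +Wnt (log2 2.57 ± 0.18 (SE), adjusted p = 8.33e-10). From Day 12 the +Fgf tissue changed by -0.41 ± 0.18 on the log2 scale, which missed the threshold (adjusted p = 0.0599 by limma) but passed it in edgeR's count test (adjusted p = 0.0415) and in several fits without 1 library. On Day 15, Anxa2 was 2.24-fold lower in +Fgf than in +Wnt (log2 -1.16 ± 0.18 (SE), adjusted p = 2.41e-05 by limma).

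S100a10 (chr3:93555080-93564643), the light chain that Anxa2 carries, did not follow Anxa2 on Day 15. It was measured at 10.2, 7.02 and 11.0 CPM on Day 10, at 37.6, 38.8 and 58.8 CPM in Day 12 +Fgf and at 3.40, 2.71 and 4.10 CPM in Day 12 +Wnt, again on either side of Day 10. It was then at 27.8, 27.3 and 22.9 CPM in Day 15 +Fgf and at 7.51, 7.16 and 7.58 CPM in Day 15 +Wnt. Every Day 15 +Fgf library thus lay above every Day 15 +Wnt library, the reverse of Anxa2, and the Day 15 +Wnt libraries overlapped with Day 10. The Day 15 difference between +Fgf and +Wnt was 1.76 ± 0.18 (SE) on the log2 scale (adjusted p = 2.33e-07 by limma). By Day 12 S100a10 had risen in +Fgf (log2 2.22 ± 0.18 (SE), adjusted p = 5.30e-08 by limma) and fallen in +Wnt (log2 -1.38 ± 0.18 (SE), adjusted p = 7.37e-06) against Day 10. It rose 2.11-fold from Day 12 to Day 15 in +Wnt (log2 1.07 ± 0.18 (SE), adjusted p = 6.18e-05 by limma). Against Day 10, the Day 15 +Fgf level was higher (log2 1.46 ± 0.18 (SE), adjusted p = 1.85e-06 by limma). The Day 15 +Wnt level did not pass the test (log2 -0.31, 95% interval -0.69 to 0.08, adjusted p = 0.135 by limma), but it was called lower without Day 10 replicate 2 (log2 -0.50, adjusted p = 0.0199) and after quantile normalization (log2 -0.97, adjusted p = 3.73e-05).

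The ratio of the Anxa2 to the S100a10 level, each per length of transcript, put this in 1 number per library. On Day 10 it was 1.85, 1.71 and 1.87. In Day 12 +Fgf it was 1.35, 1.39 and 1.30, in Day 12 +Wnt 2.22, 2.91 and 2.51 and in Day 15 +Fgf 1.70, 1.38 and 2.15. In Day 15 +Wnt it was 14.5, 13.1 and 12.9, above all 12 other libraries. The Day 15 groups differed by 2.97 on the log2 scale, with +Wnt higher (exact two-sided permutation test, p = 0.1, the smallest p that 3 against 3 samples allow). The ratio compares RNA levels, and amounts of protein or complex were not measured.

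**Figure D2:**
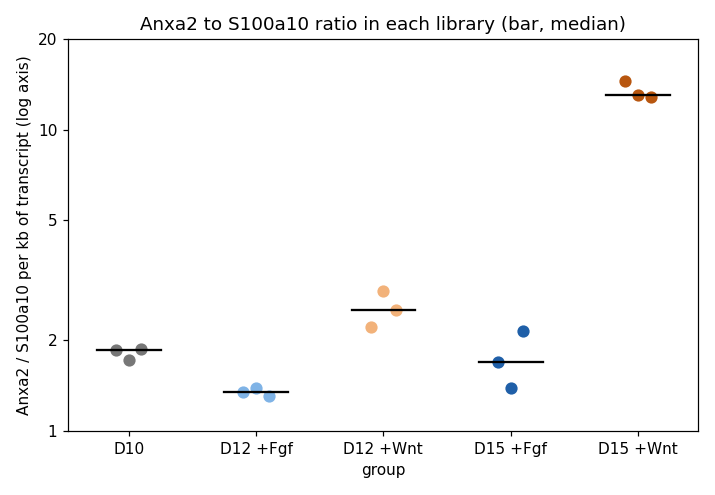
Ratio of the Anxa2 to the S100a10 level per kb of transcript (log axis) in each library, with a bar at the group median. The 3 Day 15 +Wnt libraries lie between 12.9 and 14.5, and the other 12 libraries between 1.30 and 2.91.

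Anxa5 (chr3:36448923-36475894), whose protein binds exposed phosphatidylserine and is widely used to detect dying cells, followed the direction of Anxa1 over a smaller range. Day 10 libraries held 43.2, 37.3 and 42.9 CPM, Day 12 +Fgf libraries 125, 110.3 and 149 CPM and Day 12 +Wnt libraries 27.9, 25.8 and 29.3 CPM. It rose 3.08-fold in Day 12 +Fgf (log2 1.63 ± 0.10 (SE), adjusted p = 3.28e-09 by limma) and fell 1.48-fold in Day 12 +Wnt (log2 -0.57 ± 0.10 (SE), adjusted p = 2.07e-04). By Day 15 the conditions had drawn together, at 74.1, 69.2 and 71.5 CPM in +Fgf and 62.7, 47.3 and 56.5 CPM in +Wnt. The remaining difference of 0.37 ± 0.10 (SE) on the log2 scale passed the test (adjusted p = 0.00446 by limma), but not with the RNA integrity number as a covariate (log2 0.24, adjusted p = 0.338). Both Day 15 groups were above Day 10, by 0.80 in +Fgf (adjusted p = 3.19e-06 by limma) and 0.42 in +Wnt (adjusted p = 0.00142).

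Anxa6 (chr11:54979108-55033445), a long annexin with a duplicated core that acts on endocytosis and cholesterol transport, rose under both conditions. It was lowest on Day 10, at 12.1, 9.43 and 12.6 CPM. Day 12 +Fgf libraries held 52.9, 53.8 and 70.5 CPM and Day 12 +Wnt libraries 25.03, 26.9 and 27.5 CPM, so that all 6 lay above all Day 10 libraries. The changes from Day 10 were 2.34 ± 0.13 (SE) in +Fgf (adjusted p = 4.50e-10 by limma) and 1.21 ± 0.13 (SE) in +Wnt (adjusted p = 5.58e-07) on the log2 scale. On Day 15 the conditions had changed places, with 35.0, 31.6 and 40.5 CPM in +Fgf and 95.3, 76.1 and 82.7 CPM in +Wnt. After Day 12 it fell in +Fgf (log2 -0.72 ± 0.13 (SE), adjusted p = 1.32e-04 by limma) and rose in +Wnt (log2 1.66 ± 0.13 (SE), adjusted p = 6.39e-09). Day 15 +Wnt was 7.30-fold above Day 10, the largest such rise of the 10 genes (log2 2.87 ± 0.13 (SE), adjusted p = 2.71e-12 by limma).

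Anxa3 (chr5:96793339-96845966), a low-abundance member here whose exons overlap those of Gm42603 on the same strand, was measured at 4.36, 1.67 and 3.44 CPM on Day 10. Day 12 +Fgf libraries held 16.4, 15.5 and 22.5 CPM, all well above Day 10 (log2 2.49 ± 0.25 (SE), adjusted p = 5.11e-07 by limma), and Day 12 +Wnt libraries held 1.57, 2.23 and 2.65 CPM, which overlapped Day 10. In Day 15 +Fgf it was back at 4.06, 4.33 and 4.38 CPM, a drop from Day 12 of 2.00 on the log2 scale (adjusted p = 4.12e-06 by limma). Day 15 +Wnt libraries held 9.43, 7.46 and 7.72 CPM, above Day 12 +Wnt by 1.81 ± 0.25 (adjusted p = 7.20e-06 by limma). It was higher than on Day 10 in Day 15 +Wnt (log2 1.38 ± 0.25 (SE), adjusted p = 8.55e-05 by limma), whereas Day 15 +Fgf did not pass the test (log2 0.49, 95% interval -0.05 to 1.02, adjusted p = 0.0924 by limma) except without Day 10 replicate 1 (log2 0.75, adjusted p = 0.0146). The Day 12 +Wnt difference from Day 10 was -0.43 (adjusted p = 0.148 by limma) and turned into a call without Day 10 replicate 2 (log2 -0.79, adjusted p = 0.00365).

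Anxa4, Anxa7 and Anxa11 had a pattern apart from these genes: little movement in +Fgf and their highest levels in Day 15 +Wnt. Anxa4 (chr6:86736840-86793584), an annexin abundant in many secretory epithelia, was measured at 13.9, 14.4 and 13.4 CPM on Day 10 and at 12.0, 12.1 and 14.1 CPM in Day 12 +Fgf. It was then at 18.3, 16.01 and 13.8 CPM in Day 12 +Wnt and 11.7, 14.6 and 12.4 CPM in Day 15 +Fgf. The 12 libraries of these 4 groups lay between 11.7 and 18.3 CPM, and the Day 15 +Wnt libraries lay apart at 49.5, 43.6 and 49.0 CPM. It rose 2.93-fold from Day 12 to Day 15 in +Wnt (log2 1.55 ± 0.11 (SE), adjusted p = 2.83e-09 by limma). On Day 15, +Fgf was 3.63-fold below +Wnt, the largest +Fgf deficit of the 10 genes (log2 -1.86 ± 0.11 (SE), adjusted p = 2.22e-10 by limma). In +Fgf it did not pass the test against Day 10 at Day 12 (log2 -0.13, 95% interval -0.36 to 0.11, adjusted p = 0.350 by limma) or at Day 15 (log2 -0.11, 95% interval -0.35 to 0.12, adjusted p = 0.363 by limma), but quantile normalization called it lower at Day 15 (log2 -0.39, adjusted p = 0.00438).

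Anxa7 (chr14:20455260-20480133), also known as synexin for its part in secretory granule fusion, was measured at 21.2, 23.0 and 22.5 CPM on Day 10, 18.2, 18.9 and 22.4 CPM in Day 12 +Fgf and 26.7, 31.0 and 28.0 CPM in Day 12 +Wnt. Its Day 15 libraries held 17.2, 16.9 and 16.6 CPM in +Fgf and 45.7, 40.7 and 40.0 CPM in +Wnt, on either side of Day 10 with no overlap. Against Day 10 it fell in Day 15 +Fgf (log2 -0.39 ± 0.09 (SE), adjusted p = 6.49e-04 by limma) and rose in Day 15 +Wnt (log2 0.91 ± 0.09 (SE), adjusted p = 3.56e-08). It was already 1.28-fold higher in Day 12 +Wnt than on Day 10 (log2 0.36 ± 0.09 (SE), adjusted p = 0.00186 by limma). Its decrease from Day 12 to Day 15 in +Fgf (log2 -0.22, adjusted p = 0.0356 by limma) lost the call in edgeR (adjusted p = 0.0578) and without Day 12 +Fgf replicate 3 (log2 -0.13, adjusted p = 0.200).

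Anxa11 (chr14:25842156-25886804), which takes part in vesicle and RNA granule transport, was the lowest annexin per length in Day 12 +Fgf and Day 15 +Fgf. It was measured at 7.09, 7.96 and 6.42 CPM on Day 10, 5.77, 5.29 and 6.01 CPM in Day 12 +Fgf and 7.11, 5.15 and 4.77 CPM in Day 12 +Wnt. Day 15 libraries held 5.60, 6.80 and 4.59 CPM in +Fgf and 12.0, 12.2 and 14.6 CPM in +Wnt. Only the Day 15 +Wnt libraries stood clear of the others, 1.77-fold above Day 10 (log2 0.83 ± 0.16 (SE), adjusted p = 1.72e-04 by limma), a call that was lost after quantile normalization (log2 0.30, adjusted p = 0.0977). The difference from Day 15 +Fgf was larger (log2 -1.16 ± 0.16 (SE), adjusted p = 7.47e-06 by limma). The antisense gene Anxa11os overlaps its exons, as Gm16144 overlaps Anxa2 and Gm44036 overlaps Anxa4 on the opposite strand, and the strand setting of the counting is not given in the sources used here.

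S100a6 (chr3:90612882-90624181), known as calcyclin and often raised in proliferating cells, was the second S100 gene on the list. Day 10 libraries held 18.4, 10.6 and 16.6 CPM, Day 12 +Fgf libraries 43.3, 41.7 and 70.5 CPM and Day 12 +Wnt libraries 8.24, 8.004 and 5.76 CPM. It rose 3.36-fold in Day 12 +Fgf (log2 1.75 ± 0.22 (SE), adjusted p = 4.43e-06 by limma) and fell 2.00-fold in Day 12 +Wnt (log2 -0.999 ± 0.22 (SE), adjusted p = 8.02e-04). By Day 15 both had crossed over, with 9.14, 9.68 and 8.62 CPM in +Fgf and 38.2, 25.4 and 31.2 CPM in +Wnt. The drop in +Fgf after Day 12 was 5.36-fold (log2 -2.42 ± 0.22 (SE), adjusted p = 8.50e-08 by limma), and the gain in +Wnt was 4.17-fold (log2 2.06 ± 0.22 (SE), adjusted p = 2.96e-07). Against Day 10, Day 15 +Wnt ended higher (log2 1.06 ± 0.22 (SE), adjusted p = 2.44e-04 by limma). Day 15 +Fgf ended below Day 10 (log2 -0.68, adjusted p = 0.00984 by limma), which missed the threshold without Day 10 replicate 1 (log2 -0.52, adjusted p = 0.0575).

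Counted together, the genes of the list were mostly called higher than on Day 10 in Day 12 +Fgf and in Day 15 +Wnt. The genes were chosen on a contrast of the Day 12 libraries. Counts that use those libraries, here and from Day 12 to Day 15, are therefore a description and no independent support. In Day 12 +Fgf against Day 10, 6 of the 9 genes with a test rose, against 27.9% of all tested genes called higher, and 0 fell, against 27.8% called lower. All 6 rose by at least 1 on the log2 scale, as did 5.71% of all tested genes. The count of falling genes by limma was also 0 at an unadjusted p under 0.05 and 0 by edgeR's count test, while quantile normalization called Anxa7 and Anxa11 lower. Day 12 +Fgf replicate 3 was the highest of its group for 10 of the 10 genes, as for 38.0% of all tested genes, and without it Anxa7 was also called lower (log2 -0.26, adjusted p = 0.0204 by limma). In Day 12 +Wnt against Day 10, 2 of 9 rose (Anxa6 and Anxa7) and 4 fell (Anxa2, Anxa5, S100a6 and S100a10). Of all tested genes, 30.6% rose and 29.6% fell, and with 9 genes nothing is read from shares this near.

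From Day 12 to Day 15 the conditions parted. In +Fgf, 6 of 9 genes fell (Anxa3, Anxa5, Anxa6, Anxa7, S100a6 and S100a10), against 29.9% of all tested genes, and 0 rose, against 27.2%. In +Wnt, 9 of 9 rose and 0 fell, against 32.5% and 35.5% of all tested genes. Of these, 7 rose by at least 1 on the log2 scale, against 13.4%, the exceptions being Anxa5 (0.99) and Anxa7 (0.55). Against Day 10, 5 of 10 were higher and 2 lower in Day 15 +Fgf (background 36.2% and 36.4%), and 8 of 10 were higher and 0 lower in Day 15 +Wnt (background 39.6% and 40.2%). The Day 15 +Wnt rise was at least 1 on the log2 scale for 5 of the 10 genes, against 19.1% of all tested genes. Each of these counts of 0 by limma was 0 at an unadjusted p under 0.05 and 0 by edgeR's count test. The median log2 difference of the 10 genes was 0.64 in Day 15 +Fgf and 0.99 in Day 15 +Wnt, where the median of all tested genes was -0.0032 and -0.0048.

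Between the Day 15 conditions all 10 genes passed the test. Anxa1, Anxa5 and S100a10 were higher in +Fgf, against 38.0% of all tested genes, and the other 7 were lower, against 30.6%. Of the 3 higher genes, 2 differed by at least 1 on the log2 scale (Anxa1 and S100a10), against 6.93%. Of the 7 lower genes, 6 differed by at least 1 on the log2 scale, with Anxa3 (-0.89) as the exception, against 12.8% of all tested genes. Besides the values above, the log2 differences were -1.74 ± 0.22 (SE) for S100a6, -1.30 ± 0.09 (SE) for Anxa7 and -1.24 ± 0.13 (SE) for Anxa6, with adjusted p of 1.94e-06, 8.66e-10 and 1.82e-07 by limma. With the RNA integrity number as a covariate the Day 15 count was 1 higher gene, S100a10, and 7 lower. Groups that did not overlap at Day 12 were found for 8 of 10 genes, 7 higher in +Fgf and Anxa7 lower, where 30.9% and 29.4% of all tested genes stood apart in the same way. Since the genes were chosen on the Day 12 contrast, nothing is read from the Day 12 count.

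**Figure D3:**
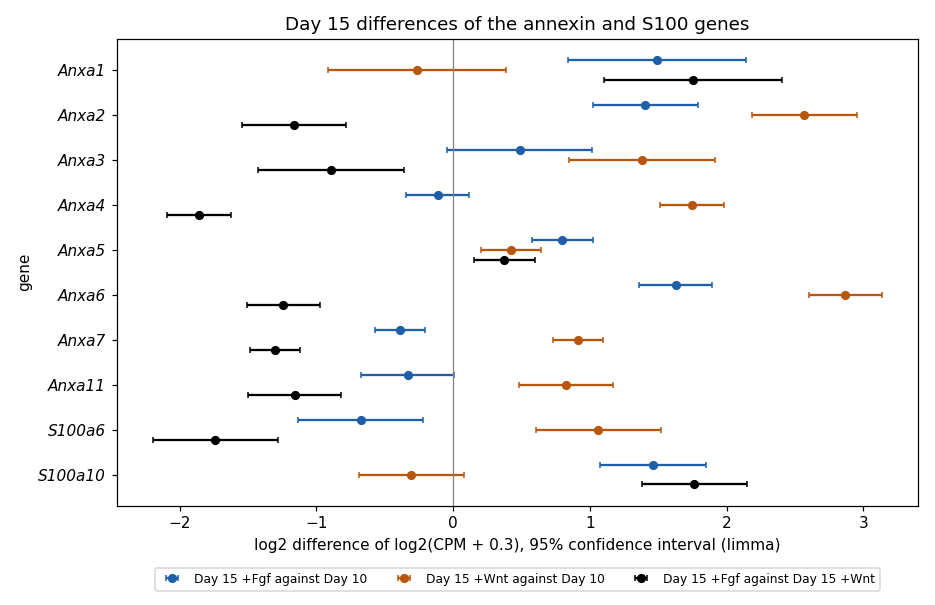
Log2 difference and 95% confidence interval from limma (x axis) for each of the 10 genes (y axis), for Day 15 +Fgf against Day 10 (blue), Day 15 +Wnt against Day 10 (orange) and Day 15 +Fgf against Day 15 +Wnt (black). The black points lie right of 0 for Anxa1, Anxa5 and S100a10 and left of 0 for the other 7 genes.

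On the scale of CPM per kb of transcript, where genes can be compared with each other, the 8 annexins summed to 76.3 ± 10.5 (SD, n = 3) on Day 10. The sum was 272 ± 61.8 in Day 12 +Fgf and 61.1 ± 2.14 in Day 12 +Wnt. On Day 15 it was 147 ± 11.0 in +Fgf and 263 ± 23.0 in +Wnt. Day 12 +Fgf and Day 15 +Wnt thus reached sums within 1 SD of each other, with different shares of the genes in them. Anxa1 made up 21.3 ± 3.22% of the sum in the first and 0.956 ± 0.243% in the second, and Anxa2 made up 32.3 ± 1.45% and 55.4 ± 0.972%. Anxa5 took 27.5 ± 2.55% in Day 12 +Fgf and 12.1 ± 0.734% in Day 15 +Wnt.

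The order of the levels per kb was led by Anxa2 in 4 groups and by Anxa5 in Day 12 +Wnt, and the first 2 genes overlapped in all groups but those of Day 15. On Day 10, Anxa2 at 25.001 ± 6.57, Anxa5 at 23.8 ± 1.92, S100a6 at 20.8 ± 5.61 and S100a10 at 13.7 ± 3.06 CPM per kb overlapped with their neighbours in the order. Anxa7, Anxa4 and Anxa6 followed, each clear of the gene above it, and then Anxa1, Anxa11 and Anxa3, which overlapped with their neighbours. In Day 12 +Fgf, Anxa1 moved up to 59.3 ± 23.0 CPM per kb and overlapped with S100a10 just above it, whereas in Day 12 +Wnt it was the lowest of the 10, at 0.157 ± 0.0316. In Day 15 +Wnt, Anxa2 at 146 ± 11.3 stood clear of S100a6, the next in order, at 43.3 ± 8.76.

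**Figure D4:**
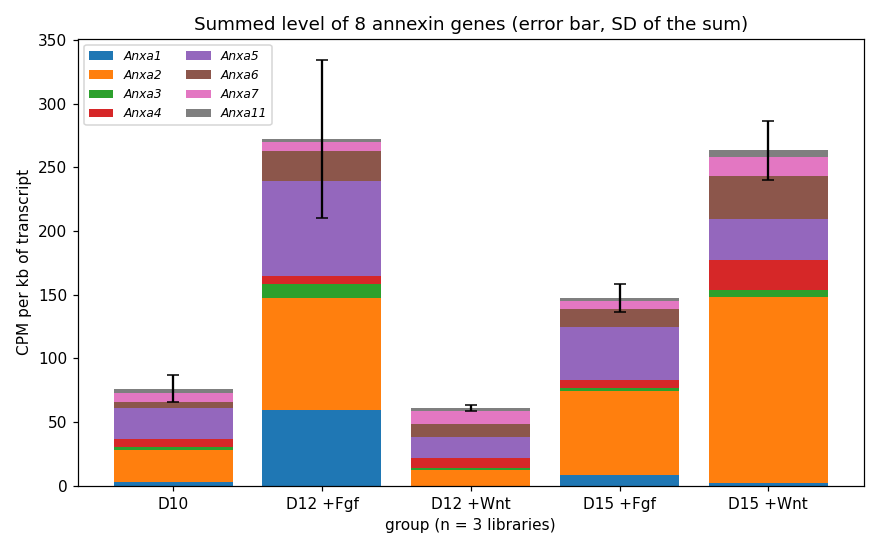
Mean level of the 8 annexins (CPM per kb of transcript) stacked by gene in each group, with the SD of the sum over 3 libraries as the error bar. The sums are 272 in Day 12 +Fgf and 263 in Day 15 +Wnt, against 76.3 on Day 10 and 61.1 in Day 12 +Wnt. As a mean of the shares in single libraries, Anxa1 makes up 21.3% in Day 12 +Fgf and at most 5.98% in the other groups.

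Over the 15 libraries, the log2 levels of Anxa1 ran closest to those of Anxa5 (Pearson r = 0.970) and S100a10 (r = 0.968), and Anxa4 ran closest to Anxa11 (r = 0.918). Anxa3 and S100a6 were likewise closest to each other (r = 0.909), and S100a10 and Anxa7 were furthest apart (r = -0.65). These values describe 15 libraries in 5 groups, so that they mostly reflect the group means. Among all tested genes outside the list, those closest to Anxa1 included Eva1a (r = 0.984), Acta2 (0.981), Spry2 (0.973) and Slc12a4 (0.967). Eva1a held 23.0, 22.6 and 25.4 CPM in Day 12 +Fgf and 1.01, 1.32 and 0.794 CPM in Day 12 +Wnt. Acta2, the smooth muscle actin gene, held 157, 156 and 218 CPM in Day 12 +Fgf and 3.77, 2.58 and 2.52 CPM in Day 12 +Wnt. Spry2, a feedback inhibitor of receptor tyrosine kinase signaling, held 63.1, 52.1 and 70.6 and 9.18, 9.67 and 9.003 CPM in these groups.

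Few other genes of both families passed the filter on low values. Anxa8, Anxa9, Anxa10 and Anxa13 were all found in the table and 0 of 4 passed, with Anxa9 the highest at up to 1.201 CPM. Of 15 other S100 genes, 5 passed: S100a1, S100a4, S100a11, S100a13 and S100a16. All 5 rose from Day 12 to Day 15 in +Wnt, as did 9 of 9 tested genes among the 10 annexin and S100 genes described above and 32.5% of all tested genes. S100a1, a calcium sensor best known from heart muscle, held 24.4, 19.2 and 15.97 CPM on Day 10 and 7.52, 11.9 and 9.89 CPM in Day 15 +Fgf, but 132, 108 and 127 CPM in Day 15 +Wnt. Its Day 15 libraries lay on either side of Day 10, and +Fgf was 12.3-fold below +Wnt (log2 -3.62 ± 0.21 (SE), adjusted p = 1.44e-10 by limma). S100a13 differed in the same direction, at 2.29, 2.20 and 2.26 CPM in Day 15 +Fgf and 8.499, 5.82 and 7.08 CPM in Day 15 +Wnt (log2 -1.53 ± 0.22 (SE), adjusted p = 1.05e-05 by limma).

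Genes of proteins that bind annexins or S100 proteins were found for 18 of 19 names and tested for 14. On Day 12 in +Fgf, 5 of 14 were higher and 7 lower than on Day 10, against 27.9% and 27.8% of all tested genes. In Day 15 +Fgf against Day 15 +Wnt 6 were higher and 2 lower, against 38.0% and 30.6%. Plat, the plasminogen activator that acts at Anxa2-S100a10 on the cell surface, held 23.4, 27.3 and 24.6 CPM on Day 10 and 110.4, 98.1 and 139 CPM in Day 12 +Fgf (log2 2.18 ± 0.10 (SE), adjusted p = 9.24e-11 by limma). Plat was named after its values were seen, so its p-value is no independent support. Pla2g4a, the phospholipase that Anxa1 can inhibit, held 10.8, 9.89 and 8.76 CPM in Day 15 +Fgf and 32.9, 28.5 and 28.2 CPM in Day 15 +Wnt (log2 -1.58 ± 0.22 (SE), adjusted p = 6.18e-06 by limma). Dlc1, a RhoGAP that binds S100a10, differed the other way, at 43.3, 31.0 and 31.1 and 14.5, 16.03 and 17.2 CPM (log2 1.12 ± 0.17 (SE), adjusted p = 1.66e-05 by limma). The formyl peptide receptor genes Fpr1 and Fpr2, through which Anxa1 acts outside cells, had 0 reads in all libraries but 1 of Day 15 +Fgf, where Fpr2 had 1 read.

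Of 14 membrane repair genes, 12 were found and 11 tested. In Day 12 +Fgf, 6 of 11 were higher and 2 lower than on Day 10, against 27.9% and 27.8% of all tested genes. From Day 12 to Day 15 in +Wnt, 6 were higher and 1 lower, against 32.5% and 35.5%. Between the Day 15 conditions 2 were higher in +Fgf and 5 lower, against 38.0% and 30.6%. Ehd2, an ATPase at caveolar necks, was higher in Day 15 +Fgf, at 22.6, 20.3 and 21.2 CPM against 6.89, 4.40 and 5.54 CPM (log2 1.89 ± 0.21 (SE), adjusted p = 5.86e-07 by limma). The caveolar coat genes Cav1 (log2 -1.33 ± 0.32 (SE), adjusted p = 0.00167 by limma) and Cavin1 (log2 -1.27 ± 0.14 (SE), adjusted p = 4.53e-07) and the protease gene Capn1 (log2 -1.24 ± 0.15 (SE), adjusted p = 1.16e-06) were lower, although Cav1 lost its call with the RNA integrity number as a covariate (adjusted p = 0.186).

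Genes known to respond to serum, to SRF or to YAP were mostly higher in Day 12 +Fgf and lower in Day 12 +Wnt than on Day 10. Of the 14 tested, 11 were higher and 2 lower in Day 12 +Fgf, against 27.9% and 27.8% of all tested genes, and 14 of 14 were lower in Day 12 +Wnt, against 29.6%. Summed over 16 genes they held 946 to 963 CPM on Day 10, 1686 to 2152 CPM in Day 12 +Fgf and 451 to 463 CPM in Day 12 +Wnt. On Day 15 they held 562 to 623 CPM in +Fgf and 392 to 455 CPM in +Wnt. From Day 12 to Day 15 in +Wnt, 2 of the 14 rose, 1 of them by at least 1 on the log2 scale, and 3 fell. The shares of all tested genes were 32.5% rising and 35.5% falling. Tagln, an actin-binding smooth muscle gene, showed the widest Day 15 difference, at 42.0, 36.5 and 37.8 CPM in +Fgf and 4.78, 2.68 and 2.104 CPM in +Wnt (log2 3.56 ± 0.22 (SE), adjusted p = 3.12e-10 by limma). Ccn2 (1.81), Acta2 (1.32) and Amotl2 (1.01) were also higher in Day 15 +Fgf on the log2 scale, with adjusted p of 5.60e-08, 6.80e-06 and 1.31e-10 by limma. Between the Day 15 conditions 9 of the 14 were higher in +Fgf and 1 lower, against 38.0% and 30.6% of all tested genes. Thbs1 went the other way, at 17.4, 17.5 and 20.7 CPM in Day 15 +Fgf and 37.2, 31.5 and 30.7 CPM in Day 15 +Wnt. The part of serum in these levels was not tested.

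Summed markers of some other cell types also rose from Day 12 to Day 15 in +Wnt. Mesenchyme and neural crest markers summed to 111 to 131 CPM in Day 12 +Wnt and to 452 to 553 CPM in Day 15 +Wnt, and 9 of 10 tested rose, against 32.5% of all tested genes, among them Col1a1 from 3.06 to 61.5 CPM and Dcn from 7.15 to 111 CPM (means). Of the 12 genes, the neural crest genes Sox10 and Foxd3 had at most 3 reads in each +Wnt library. Surface epithelium and endoderm markers summed to 81.9 to 127.5 CPM in Day 12 +Wnt and to 316 to 422 CPM in Day 15 +Wnt, where Krt5, Krt14, Trp63 and Afp had at most 3 reads in each library. Of the 6 tested genes of that list, 3 rose and 1 fell between these days, against 32.5% and 35.5% of all tested genes. In Day 12 +Fgf the mesenchyme list summed to 189 to 256 CPM, against 116 to 135 CPM on Day 10, and 4 of 10 rose (Tfap2a, Pdgfrb, Col1a1 and Col1a2), against 27.9% of all tested genes. Retinal neuron markers summed to 328 to 366 CPM on Day 10. In +Fgf they summed to 398 to 436 CPM on Day 12 and 1967 to 2198 CPM on Day 15. In +Wnt these sums were 760 to 953 CPM and 1348 to 1520 CPM. From Day 12 to Day 15, 10 of 10 rose in +Fgf, against 27.2% of all tested genes. In +Wnt 5 of 10 rose and 2 fell, against 32.5% and 35.5%. In the +Fgf groups the endothelial and blood list summed to 100.2 to 171 CPM on Day 12 and 216 to 267 CPM on Day 15, against 38.1 to 62.6 CPM on Day 10, of which Kdr alone, a Vegf receptor gene, gave means of 141, 248 and 49.0 CPM. Of the 4 genes of that list with a test, Kdr was the 1 called higher than on Day 10 in both +Fgf groups, and 2 (Pecam1 and Csf1r) were called lower in both. Of all tested genes, 27.9% were higher and 27.8% lower in Day 12 +Fgf, and 36.2% and 36.4% in Day 15 +Fgf. With 4 genes nothing is read from these counts, and Csf1r had at most 3 reads in each Day 12 +Fgf library. The same list summed to 7.31 to 10.1 CPM in Day 12 +Wnt and to 43.8 to 47.9 CPM in Day 15 +Wnt, with Cdh5, Ptprc and Aif1 at no more than 3 reads in each library of both groups. Pluripotency markers summed to 20.7 to 55.7 CPM in Day 12 +Wnt and 11.4 to 55.8 CPM in Day 15 +Wnt. The part of these cell types in the levels of the annexins was not tested.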

How the data were processed

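RNA was measured by RNA-Seq in 15 libraries, 3 biological replicates in each of 5 groups. Per the methods of the study, the authors aligned reads to mm10 with TopHat2 2.0.8b, counted fragments over UCSC genes with Cuffdiff of Cufflinks 2.1.1 and normalized them in edgeR 3.2.4. The deposited signal values, which the file headers call CPM, came as 1 table of all samples and 15 tables of single samples, whose values differed by at most 7.8e-09 of the value. Columns summed to between 936418 and 1075448 and held whole multiples of the value of 1 read for 100.0% of values (tolerance 0.01 reads), so that reads could be recovered (12556998 to 16175450 for each library). The strand setting of the counting is not given in the sources used here.

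After rescaling each column to the same total, 13845 of 23244 genes reached 1 CPM in 3 or more libraries and were kept. Log2(CPM + 0.3) was fitted with limma 3.58.1 (R 4.3.3) as 5 group means with an intensity trend, and p-values were adjusted by Benjamini-Hochberg over all genes at 0.05. The pseudocount shrinks the fold changes of low genes. Alternatives were pseudocounts of 0.05 and 1, no filter or one of 10 CPM, quantile normalization, DESeq2 1.42.0 size factors, edgeR 4.0.16 quasi-likelihood on the recovered reads, the RNA integrity number of the study's sample table as a covariate, a replicate block, the 6 samples compared alone, and leaving out each library. The scripts were tested on simulated data. Ratios and marker sums were computed in Python 3.11.15 with pandas 2.3.3 and SciPy 1.17.1.

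The members and lists were chosen with earlier results of these data known. Named from the lists were genes past the threshold between the Day 15 groups with a log2 difference of at least 1 and at least 5 CPM in the higher group, up to 6 for each list, and the 5 genes most correlated with Anxa1, of which 1 is not reported here. S100a11, Plat and the Fpr genes were added after their values were seen. Gene positions, transcript lengths (the longest transcript matched to the accession of the entry) and overlaps came from GENCODE M21 on GRCm38, and promoter windows (for 7 of 10 genes) from RefSeq on GRCm38.p6. Biological replicates came from 1 cell line, so p-values measure the spread between cultures of that line.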

Additional observations from a re-analysis of the deposited data

Results flagged for a closer look

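Changes from Day 10 to Day 15 that limma called in opposite directions under +Fgf and +Wnt were found for 2 of the 10 genes and, among the 12 genes named from the lists of other S100 genes, binding partners, membrane repair and serum response, for 3. Marker genes of the tissue were not counted. The share of all tested genes called in opposite directions is not given here, so nothing is read from these counts. Against Day 10, 36.2% of all tested genes were called higher and 36.4% lower in Day 15 +Fgf. In Day 15 +Wnt these shares were 39.6% and 40.2%. The 12 genes were named for a large gap between the Day 15 groups, which favours opposite changes. For Anxa7 the change in +Fgf minus that in +Wnt was -1.3 on the log2 scale, and for S100a6 it was -1.74. Among the other S100 genes the same difference was -3.62 for S100a1 and -1.53 for S100a13. For Tagln, of the serum and SRF or YAP list, it was 3.56. Since both changes start from the same Day 10 libraries, each of these differences equals the Day 15 difference between +Fgf and +Wnt. Limma called that difference for all 5 (adjusted p between 1.44e-10 and 1.05e-05). For S100a1, S100a13 and Tagln this call was a condition of being named, so it adds no support. All 3 Day 15 +Fgf libraries lay below all 3 Day 15 +Wnt libraries for Anxa7, S100a6, S100a1 and S100a13, and above them for Tagln.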

How the results depend on the processing

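Of 2273 values recomputed under the alternatives, 2231 kept their call or, where no test was made, stayed within the spread. The threshold was newly passed by 23 and lost by 11, and 8 moved further. A reversal was counted only with a call in either fit or, without a test, beyond the spread, and 0 were found. Values without a call in either fit counted as kept even where the sign changed. An example is Anxa7 in Day 12 +Fgf against Day 10 (log2 -0.17, up to 0.03 in an alternative). The Day 12 log2 difference of Anxa1 between +Fgf and +Wnt, 7.41, was 8.26 with a pseudocount of 0.05, 6.25 with a pseudocount of 1 and 8.49 in edgeR, since its +Wnt level rests on 12 reads. Quantile normalization, which moved the median of all genes in Day 15 +Wnt against Day 10 to -0.11 (log2), raised the number of genes of the list called lower to 2 in Day 12 +Fgf against Day 10 (from 0), 4 in Day 15 +Fgf against Day 10 (from 2) and 2 in Day 15 +Wnt against Day 10 (from 0), and the cause was not tested. Over the fits without 1 library these 3 counts ranged from 0 to 1, from 1 to 3 and from 0 to 2. The count of 1 in Day 12 +Fgf came without Day 12 +Fgf replicate 3 (Anxa7), that of 1 in Day 15 +Fgf without Day 10 replicate 1 (S100a6 lost), and that of 2 in Day 15 +Wnt without Day 10 replicate 2 (Anxa1 and S100a10). The count of 3 came without Day 12 +Wnt replicate 1 or Day 15 +Fgf replicate 2, where Anxa11 was called (adjusted p = 0.0486 and 0.0234 by limma). The RNA integrity covariate lowered the genes called in Day 15 +Fgf against Day 12 +Fgf from 7899 to 3591 and the listed genes called higher in Day 15 +Fgf than in Day 15 +Wnt from 3 to 1, and the cause was not tested. Deviations of same-numbered replicates from their group means had correlations from -0.25 to 0.24. Every library went best with its own number in 1 of 7 comparisons, Day 15 +Fgf against Day 10, with correlations of 0.05 to 0.10. In Day 15 +Fgf against Day 15 +Wnt, 4 of 6 libraries did so. With a replicate block, the count of listed genes called lower in Day 15 +Fgf against Day 12 +Fgf was 7 in place of 6, since Anxa2 passed (adjusted p = 0.0139 by limma), and no other count of listed genes changed. Genes with few reads, above all Anxa1 in Day 12 +Wnt, are limited by depth.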

Other observations

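Within groups, the libraries were not evenly placed for these genes. Day 15 +Wnt replicate 1 was the highest of its group for 8 of the 10 genes, as for 33.3% of all tested genes, and replicate 2 was the lowest for 8, as for 37.0% of all tested genes. Day 10 replicate 2 was the lowest of its group for 7 of the 10 genes, as for 37.5% of all tested genes, while Anxa4, Anxa7 and Anxa11 were highest there.

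The ratio of Anxa11 to S100a6, per kb of transcript, had a median of 0.118 on Day 10, 0.0388 in Day 12 +Fgf and 0.253 in Day 12 +Wnt, and of 0.187 in Day 15 +Fgf and 0.143 in Day 15 +Wnt. The ratio of Anxa1 to Anxa2 had a median of 0.114 on Day 10, 0.641 in Day 12 +Fgf and 0.0108 in Day 12 +Wnt, and of 0.145 in Day 15 +Fgf and 0.019 in Day 15 +Wnt.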
